A study of Mus musculus with 4 samples.

Results

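The 9 genes described here are inhibitors of the cell division cycle and genes of the p53 response, chosen by name as Cdkn1a, Cdkn1b, Cdkn1c, Cdkn2a, Cdkn2b, Cdkn2c, Trp53, Mdm2 and Gdf15 with no threshold on a measured value. They are 9 of the 32285 genes counted in single mononuclear cells of mouse skeletal muscle, and a row was found for each. The cells came from the quadriceps or the diaphragm, the main breathing muscle, of wild-type (WT) mice or of mdx5cv mice, which carry a mutation in the dystrophin gene and are a model of Duchenne muscular dystrophy. All mice were 14 weeks old and no treatment is labelled. Strain background and the number of animals behind a library are not given in the labels, so whether a library is 1 animal or a pool is unknown. The suspensions were frozen and thawed before loading, and a droplet method was used that counts unique molecular identifiers (UMIs) at the 3′ end of transcripts. Muscle fibres, which hold many nuclei and are too large for droplets, are not among such cells.

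Each group is 1 library. Differences therefore stand without a check over replicates, and p-values are not given. The libraries are listed with WT before mdx5cv, and quadriceps before diaphragm within each genotype. They held 18837891, 40226833, 62780685 and 49612759 UMIs, and 4911, 7516, 8334 and 7402 barcodes were kept as cells, with a median of 2055, 4356, 5328 and 4894 UMIs. Between 5 and 17 kept barcodes were shared by any pair of libraries. Values are always given in this library order.

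Cells were classed by marker genes. Muscle stem cell-like cells (markers such as Pax7, Myf5 and Myod1) numbered 399, 125, 208 and 209. There were 928, 6232, 1477 and 3013 fibroblast-like cells (Pdgfra, Col1a1, Lum), which include the fibro/adipogenic progenitors of muscle. Macrophage-like cells (C1qa, Adgre1, Mrc1) numbered 193, 142, 3285 and 1382, and endothelial-like cells (Pecam1, Cdh5, Kdr) 2576, 75, 422 and 362. Among the 10 genes with the highest fold in each class, between 3 and 5 were its own markers and 0 were markers of another class. The stem cell gate also admits cells already committed to muscle: the differentiation factor Myog had a UMI in 2, 0, 34 and 40 of its cells. Summed fibroblast markers in stem cell-like cells reached 288, 229.8, 1320 and 846.5 UMIs per 1000000 UMIs of the class (CPM), against 14779, 13050, 30540 and 24837 CPM in the fibroblast-like cells of the same libraries. The part of that in the results below was not tested.

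A cell divides when cyclins activate cyclin-dependent kinases (CDKs), which inactivate the retinoblastoma protein. The CIP/KIP inhibitors p21 (Cdkn1a), p27 (Cdkn1b) and p57 (Cdkn1c) bind cyclin-CDK complexes, whereas the INK4 inhibitors encoded by Cdkn2a, Cdkn2b and Cdkn2c bind Cdk4 and Cdk6. The transcription factor p53 (Trp53) raises Cdkn1a, Mdm2 and Gdf15 after DNA damage and other stress, and Mdm2 marks p53 for destruction. In muscle, p21 and p57 are known for the cell cycle exit of myoblasts that differentiate, and the Cdkn2a locus for senescence of stem cells.

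The upstream sequences of Cdkn1a and Cdkn2a are shown because they set the 2 best known routes to these inhibitors side by side, a p53 site and a gene with alternative starts. They are the 250 bases before each annotated start, from RefSeq on GRCm38.p6, printed 5′ to 3′ on the strand of the gene. Capitals mark a pair of adjacent decamers of the p53 motif in the first and GGGCGG, the GC box bound by Sp1, in the others.
Cdkn1a, distal start, chr17:29090729-29090978 (plus strand): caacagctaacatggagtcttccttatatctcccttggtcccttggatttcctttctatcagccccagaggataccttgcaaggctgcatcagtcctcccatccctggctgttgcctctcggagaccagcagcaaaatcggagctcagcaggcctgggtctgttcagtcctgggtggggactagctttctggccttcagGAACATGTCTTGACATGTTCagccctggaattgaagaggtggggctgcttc
Cdkn1a, proximal start, chr17:29093519-29093768 (plus strand): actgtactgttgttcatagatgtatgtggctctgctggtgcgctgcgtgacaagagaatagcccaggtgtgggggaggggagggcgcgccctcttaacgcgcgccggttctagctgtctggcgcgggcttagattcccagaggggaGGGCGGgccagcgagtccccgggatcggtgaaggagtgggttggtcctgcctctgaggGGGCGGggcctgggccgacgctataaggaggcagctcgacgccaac
Cdkn2a, proximal start, chr4:89282193-89282442 (minus strand): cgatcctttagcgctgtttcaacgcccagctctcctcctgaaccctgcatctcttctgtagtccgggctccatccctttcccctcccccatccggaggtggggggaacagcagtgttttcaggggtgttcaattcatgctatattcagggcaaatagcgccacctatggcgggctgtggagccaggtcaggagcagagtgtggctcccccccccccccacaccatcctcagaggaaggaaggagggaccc
Cdkn2a, distal start, chr4:89294620-89294869 (minus strand): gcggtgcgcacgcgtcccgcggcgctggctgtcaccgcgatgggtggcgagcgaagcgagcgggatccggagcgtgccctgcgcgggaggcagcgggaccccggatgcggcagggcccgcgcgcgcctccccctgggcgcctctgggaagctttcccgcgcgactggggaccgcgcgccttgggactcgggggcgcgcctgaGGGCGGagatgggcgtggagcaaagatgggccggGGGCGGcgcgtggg
The p53 pair begins 51 bases before the distal start of Cdkn1a, within the promoter region of a gene long used as the readout of p53. It was searched on both strands as adjacent decamers of the p53 consensus with at most 1 base outside it and the central C and G intact, a form chosen after this sequence had been read. It was found in 19 of 32851 upstream windows (0.0578%), and among the 8 members with a window in that of Cdkn1a alone. A single decamer was present in 7.13% of windows and also upstream of Trp53 and Mdm2. In mouse, the transcript of Cdkn2a from the distal start encodes p19Arf, an inhibitor of Mdm2, and that from the proximal start p16Ink4a. GGGCGG was present 2 times in the distal Cdkn2a window, 48 and 14 bases before the start, and 0 times in the proximal one, and 32.7% of all windows held it on either strand. These matches describe the letters of the windows only. Because UMIs were counted at the 3′ end, which the transcripts share, p16Ink4a and p19Arf cannot be told apart in the counts.

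On GRCm38, Cdkn2a (chromosome 4, 89274471 to 89294653, minus strand) lies 11645 bases from Cdkn2b (89306299 to 89311039), and Cdkn2c is farther along the same chromosome (109660876 to 109667189). Cdkn1a spans 29090976 to 29100727 on chromosome 17 and overlaps the antisense annotation AC167363.2. Cdkn1c, an imprinted gene expressed from the maternal copy, spans 143458339 to 143461050 on chromosome 7 and overlaps Gm44732 on the other strand. Trp53 is at 69580359 to 69591873 on chromosome 11, Mdm2 at 117688875 to 117710758 on chromosome 10, Gdf15 at 70629393 to 70632456 on chromosome 8 and Cdkn1b at 134920401 to 134925513 on chromosome 6.

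A level is the sum of UMIs of a gene over the cells of a class and library, as CPM of the UMIs of those cells. A ratio has an exact 95% interval in parentheses. Intervals cover counting error only and leave out differences between cells, animals and preparations. A gene was tested where it reached 5 CPM in the higher library, and was called higher or lower where the ratio was at least 1.5-fold and its interval excluded 1.

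**Figure D1:**
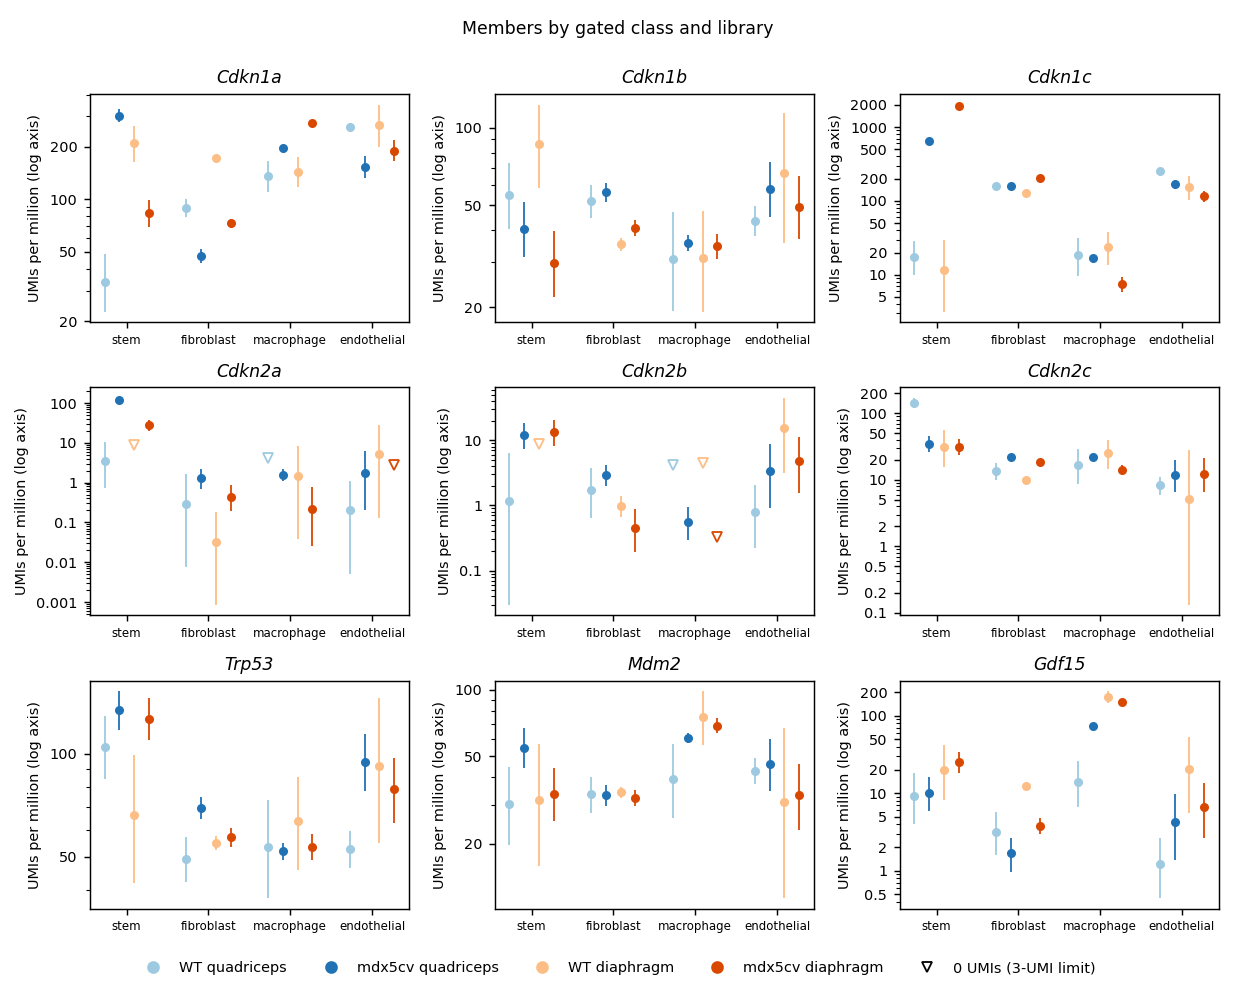
Levels of the 9 members in CPM (log axis), 1 panel per gene, in the 4 cell classes, with 1 point per library and exact 95% Poisson intervals. Cdkn1c and Cdkn2a stand highest in mdx5cv stem cell-like cells, Gdf15 in macrophage-like cells, and Trp53 lies between 49.2 and 134 CPM in all classes. Open triangles mark libraries with 0 UMIs at the level that 3 UMIs would give.

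Stem cell-like cells held the widest differences between genotypes. In mdx5cv quadriceps, Cdkn1c, Cdkn2a, Cdkn2b, Cdkn1a and Mdm2 were called higher than in WT quadriceps and Cdkn2c lower. In mdx5cv diaphragm, Cdkn1c, Cdkn2a, Cdkn2b and Trp53 were called higher than in WT diaphragm, and Cdkn1a and Cdkn1b lower. All 9 members reached 5 CPM in at least 1 library of each muscle. Cdkn2a and Cdkn2b did so in the mdx5cv libraries alone, where they were high, and both are in the counts called higher below. In quadriceps 5 of the 9 were called higher and 1 lower, against 25.3% and 12.5% of the 10864 genes tested. In diaphragm 4 of the 9 were called higher and 2 lower, against 17.5% and 10% of 10797 genes.

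Cdkn1c, the inhibitor p57, had 15, 4, 1085 and 3062 UMIs in stem cell-like cells, that is 17.5, 11.5, 644 and 1945 CPM. Each mdx5cv library was far above the WT library of its muscle, with 1 library per group. The mdx5cv level was 36.9-fold (22.2 to 66.1) that of WT in quadriceps, and for diaphragm it was 169-fold (66.0 to 621.5). Within mdx5cv it was 3.02-fold higher (2.82 to 3.24) in diaphragm than in quadriceps. A Cdkn1c UMI was present in 3.01%, 3.2%, 43.3% and 56.0% of cells. With every cell thinned to 1000 UMIs, these shares were 1.75%, 0.8%, 23.6% and 41.6%. Lymphoid cells, which should lack the gene, had a Cdkn1c UMI in 4.55% of 22, 0.259% of 386, 0.935% of 214 and 1.02% of 788 cells. The WT quadriceps share of stem cell-like cells is thus below that of the lymphoid cells of its library, which number only 22. In WT diaphragm the stem cell-like share of 3.2% is above the lymphoid 0.259%. Both mdx5cv shares are above all the lymphoid groups. Free RNA, estimated from barcodes of 10 to 100 UMIs, would give 7.82, 2.53, 8.53 and 7.06 CPM of Cdkn1c in these cells. The signal was concentrated: 1 mdx5cv quadriceps cell held 127 of the UMIs and 1 mdx5cv diaphragm cell 142, while no WT stem cell-like cell held more than 2. Outside the class, 1 WT diaphragm barcode with a Myog UMI that passed no class held 150 Cdkn1c UMIs, which the ratios do not include. With the 5 cells richest in the gene left out of each library and class, the quadriceps call remained. The diaphragm call was not evaluated there, since the 4 WT UMIs lay in 4 cells and none was left. With a mitochondrial limit of 5% in place of 15%, few quadriceps cells were left and the call was not made, at 9 against 6 UMIs and 2.10-fold (0.669 to 7.18).

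Cdkn2a had 3, 0, 199 and 43 UMIs in stem cell-like cells (3.495, 0, 118 and 27.3 CPM). The mdx5cv quadriceps library stood apart from all others, and the mdx5cv diaphragm library was between it and WT. The quadriceps ratio was 33.8-fold (11.4 to 165), with only 3 UMIs on the WT side. In diaphragm the level was 3.17-fold higher in mdx5cv with the WT library set to the floor of 3 UMIs. The exact lower bound of that ratio was 2.47-fold. Within mdx5cv it was 4.33-fold lower (3.10 to 6.16) in diaphragm than in quadriceps, the opposite order to Cdkn1c. A Cdkn2a UMI was present in 0.752%, 0 of 125, 36.5% and 13.9% of cells, and 0 of 125 allows a share of up to 2.4% by the floor of 3 and has an exact upper bound of 2.91%. Both limit cells with a UMI at this depth, not cells that express the gene. In lymphoid cells the share was at most 0.467%, from between 0 and 3 UMIs a library. In the other 3 main classes Cdkn2a had between 0 and 36 UMIs a library and at most 5.13 CPM. Within mdx5cv quadriceps the stem cell-like level was 92.1-fold (52.6 to 176) that of fibroblast-like cells and 76.2-fold (53.2 to 111.9) that of macrophage-like cells.

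Cdkn2b, the neighbouring INK4 gene that encodes p15, had 1, 0, 20 and 21 UMIs in stem cell-like cells. The mdx5cv libraries, at 11.9 and 13.3 CPM, were alike and above WT. The quadriceps ratio was 10.2-fold (1.63 to 422) from a single WT UMI. The diaphragm difference was 1.55-fold by the floor, with an exact lower bound of 1.15-fold. The quadriceps call was not made with cells thinned to 1000 UMIs, where 2 and 1 UMIs were left, or with a mitochondrial limit of 5%, with the same numbers left.

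Cdkn2c, which encodes p18, had the opposite direction. It reached 124, 11, 59 and 50 UMIs in stem cell-like cells, or 144, 31.6, 35.0 and 31.8 CPM. WT quadriceps stood above the other 3 libraries, which were alike. The level was 4.125-fold lower (3.002 to 5.72) in mdx5cv than in WT quadriceps, while in diaphragm the ratio was 1.01 (0.516 to 2.14) and was not called. With a mitochondrial limit of 5% the quadriceps call was not made, at 6 against 14 UMIs and 0.601 (0.189 to 1.665). Within WT it was 4.57-fold lower (2.47 to 9.39) in diaphragm than in quadriceps. In WT quadriceps the stem cell-like level was 10.8-fold (7.63 to 15.5) that of fibroblast-like and 17.5-fold (12.2 to 25.6) that of endothelial-like cells.

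Cdkn1a, the inhibitor p21 and the classical target of p53, went opposite ways in the 2 muscles. Its UMIs in stem cell-like cells were 29, 73, 510 and 131, its levels 33.8, 209.7, 303 and 83.2 CPM, and the share of cells with a UMI 5.26%, 32%, 54.3% and 31.6%. Thinned to 1000 UMIs a cell, the shares were 2.26%, 18.4%, 20.2% and 10.05%. In both orders WT quadriceps was lowest, and WT diaphragm and mdx5cv quadriceps highest. The level was 8.96-fold higher (6.16 to 13.5) in mdx5cv than in WT quadriceps and 2.52-fold lower (1.87 to 3.38) in mdx5cv than in WT diaphragm. The diaphragm ratio was 22.6-fold (14.1 to 36.2) below the quadriceps ratio, an interval that covers counting error alone. Within WT, diaphragm was 6.21-fold higher (3.99 to 9.90) than quadriceps, and within mdx5cv 3.64-fold lower (2.997 to 4.44).

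Genes induced by tissue dissociation also differed with genotype in the same cells. The 10 genes of that list, immediate early and heat shock genes such as Fos, Jun and Hspa1a, summed to 50174, 40835, 10227 and 10030 CPM in stem cell-like cells, so both WT libraries were high. All 10 were called lower in mdx5cv in each muscle. Fos was 7.97-fold lower (7.515 to 8.45) in quadriceps and 6.275-fold lower (5.94 to 6.63) in diaphragm, and Junb 7.81-fold (7.22 to 8.45) and 8.48-fold (7.87 to 9.14). Among stem cell-like cells at or under the median share of these UMIs, which were 109, 39, 160 and 163 cells, Cdkn1a stood at 36.9, 255, 315 and 84.2 CPM, the same order as in all cells, and both calls were kept.

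**Figure D2:**
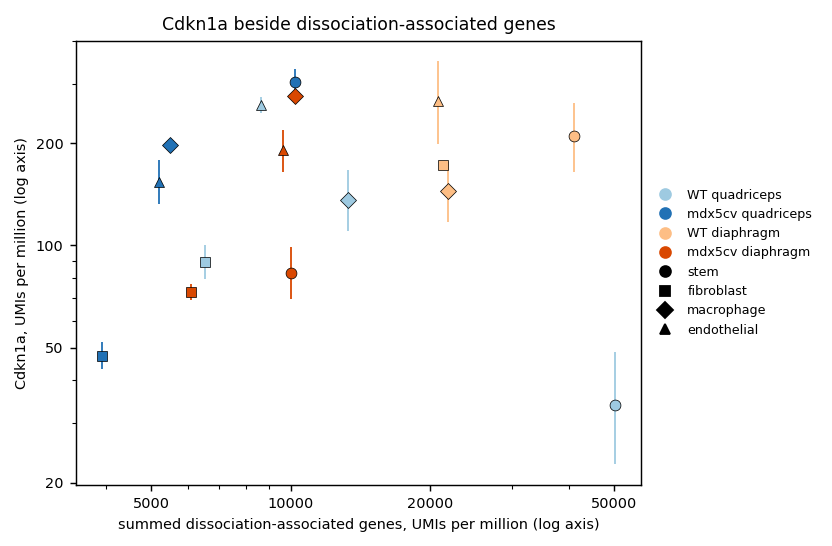
Summed level of the 10 dissociation-associated genes (CPM, log axis) against the level of Cdkn1a (CPM), 1 point per class and library. In stem cell-like cells the 2 WT libraries, at 50174 and 40835 CPM of dissociation-associated genes, hold 33.8 and 209.7 CPM of Cdkn1a.

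Cdkn1b, the inhibitor p27, had 47, 30, 68 and 47 UMIs in stem cell-like cells, at 54.8, 86.2, 40.4 and 29.9 CPM. It was 2.89-fold lower (1.76 to 4.66) in mdx5cv than in WT diaphragm and was not called in quadriceps, at 0.737-fold (0.501 to 1.09). With thinned cells the diaphragm call was not made, at 15 UMIs in each library. Trp53, which encodes p53 itself, was at 104.8, 66.1, 134 and 126 CPM. Only the diaphragm ratio of 1.91 (1.24 to 3.09) was called, and the quadriceps ratio was 1.28 (0.998 to 1.65). The test of that difference, the ratio of the ratios, was 1.495 (0.9105 to 2.455), an interval that includes 1. Mdm2, the ubiquitin ligase of p53, was at 30.3, 31.6, 54.6 and 33.7 CPM, with mdx5cv quadriceps 1.80-fold (1.16 to 2.90) above WT and a diaphragm ratio of 1.07 (0.550 to 2.26). The Mdm2 call was not made without cycling cells, where the ratio was 1.62 (0.970 to 2.76), or with cells thinned to 1000 UMIs, where it was 1.535 (0.526 to 4.32), or in cells low in dissociation-associated genes, where it was 1.37 (0.7085 to 2.95) from 86 and 10 UMIs. With a mitochondrial limit of 5% its direction turned, from 1 UMI in mdx5cv and 4 in WT. The diaphragm call of Trp53 was not made with thinned cells either, at 1.03 (0.467 to 2.40), or without the top 5% of barcodes by UMIs, at 1.46 (0.907 to 2.45). Gdf15, a secreted factor of the p53 and integrated stress responses, stayed at 9.32, 20.1, 10.1 and 25.4 CPM and was not called, and 5 cells held 92.5% of its 40 UMIs in mdx5cv diaphragm.

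**Figure D3:**
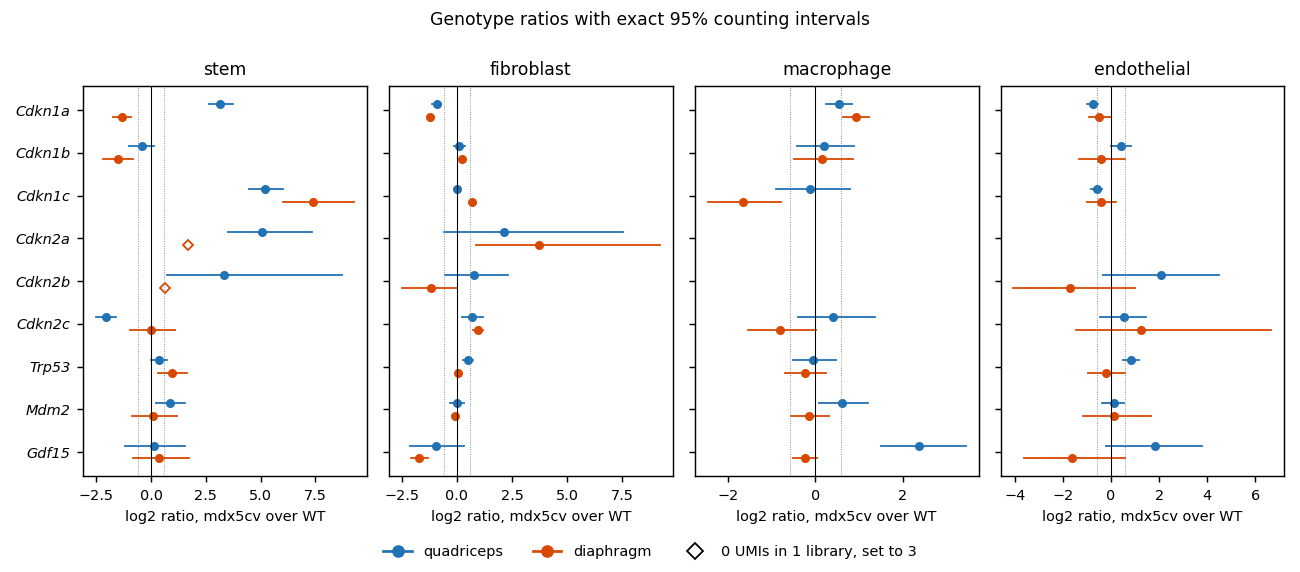
Ratio of the mdx5cv to the WT level (log2 axis) for each member, class and muscle, with exact 95% intervals and dotted lines at 1.5-fold. The 4 panels have different axis ranges, and pairs with at most 3 UMIs on both sides are not drawn. A diamond marks the ratio where 1 side had 0 UMIs and was set to 3. Cdkn1a in stem cell-like cells lies at 3.16 in quadriceps and -1.33 in diaphragm, and Cdkn1c at 5.20 and 7.40.

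Cdkn1c and Cdkn1a were higher in mdx5cv stem cell-like cells with a Myog UMI than in those with Pax7 alone, and Cdkn2a was not called. In mdx5cv quadriceps, 34 stem cell-like cells with a Myog UMI had 1489 CPM of Cdkn1c, against 329 CPM in 143 cells with Pax7, the stem cell factor, and no Myog. That is 4.53-fold (3.97 to 5.18). In mdx5cv diaphragm the levels were 4150 CPM in 40 cells and 1043 CPM in 106 cells, or 3.98-fold (3.65 to 4.34). In the Myog cells Cdkn1a was higher by 3.20-fold (2.65 to 3.86) in quadriceps and, for diaphragm, 2.75-fold (1.80 to 4.29). Cdkn2a was at 89.6 CPM in Myog cells and 121 CPM in Pax7 cells of quadriceps and at 30.8 and 23.9 CPM in diaphragm, and neither difference was called. Cdkn2c was 8.10-fold lower (2.62 to 40.6) in Myog cells of quadriceps, from 3 UMIs, while in diaphragm it was at 28.7 CPM in Myog and 37.3 CPM in Pax7 cells. Myog cells were deeper, with a median of 12366 against 5261 UMIs in quadriceps and 9087 against 5036 in diaphragm. The part of depth was not tested, and levels as CPM are per UMI.

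The genotype differences of Cdkn1c and Cdkn1a, and of Cdkn2a in quadriceps, were also present outside the Myog cells. Cells with Pax7 and no Myog numbered 209, 48, 143 and 106. Among them Cdkn1c was higher by 19.4-fold (9.73 to 45.3) in quadriceps and, for diaphragm, 72.8-fold (20.1 to 602.5). Cdkn1a was 4.43-fold higher (2.79 to 7.42) in quadriceps and 3.11-fold lower (1.73 to 5.47) in diaphragm. In quadriceps Cdkn2a had 122 UMIs against 1 in these cells. Cdkn2b was not called in them in either muscle. In diaphragm Cdkn2a, at 16 against 0 UMIs, was not called either. Nor were Trp53, at 1.665 (0.830 to 3.79), and Cdkn1b, at 0.5945 (0.2415 to 1.66), in diaphragm. Leaving out only the Myog cells gave 17.4-fold and 83.2-fold for Cdkn1c and 36.6-fold for quadriceps Cdkn2a. The calls not made in the Pax7 cells were made there.

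Cells with both Cdkn2a and Cdkn1c were present in both mdx5cv libraries. In quadriceps, a Cdkn2a UMI was present in 35.6% of the 90 cells with Cdkn1c and in 37.3% of the 118 cells without. In mdx5cv diaphragm the shares were 17.1% of 117 and 9.78% of 92 cells. Cdkn1c was present in 76.5% of Myog cells and 36.8% of the others in quadriceps, and in 90% and 47.9% in diaphragm. All these shares are of cells that were not thinned, and the Myog cells were deeper, as given above. The part of depth in these shares was not tested.

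**Figure D4:**
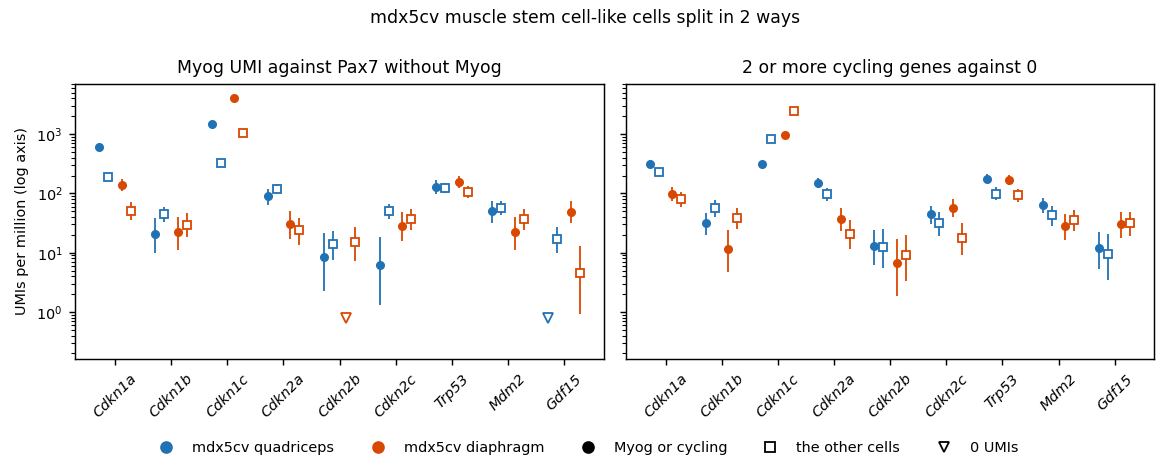
Levels of the 9 members (CPM, log axis) in mdx5cv stem cell-like cells, with exact 95% intervals, for each muscle. The left panel compares cells with a Myog UMI and cells with Pax7 and no Myog, and the right panel cycling cells and cells with no cycling gene. Triangles mark 0 UMIs and have no height on the axis. Cdkn1c is at 1489 and 4150 CPM in Myog cells, against 329 and 1043 CPM in Pax7 cells.

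Cycling stem cell-like cells, with UMIs of at least 2 of 15 genes of the S, G2 and M phases, were 2, 2, 44 and 35. In mdx5cv they made up 21.2% and 16.8% of the class. Cdkn1c was lower in them than in cells with none of those genes, by 2.63-fold (2.25 to 3.08) in quadriceps and, for diaphragm, 2.54-fold (2.31 to 2.79). Cdkn1b was lower by 1.805-fold and 3.31-fold. Trp53 was higher in cycling cells by 1.78-fold (1.31 to 2.44) and 1.81-fold (1.30 to 2.52), Cdkn2a by 1.58-fold (1.15 to 2.19) in quadriceps and Cdkn2c by 3.175-fold (1.60 to 6.735) in diaphragm. Cycling cells had a median of 17019 UMIs in quadriceps and 15466 in diaphragm against 3898 and 4326 in the others, and the part of doublets was not tested.

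In fibroblast-like cells, Cdkn1a was lower in mdx5cv in both muscles while Cdkn2c was higher. Cdkn1c was called higher in diaphragm, and Trp53, Mdm2 and Cdkn1b were not called. In quadriceps 6 members were tested and 1 was called higher and 1 lower, against 19.6% and 14.7% of 10868 genes. In diaphragm 7 were tested and 2 called higher and 2 lower, against 12% and 10.4% of 10353 genes. Cdkn2a and Cdkn2b stayed under 5 CPM in both muscles, and Gdf15 in quadriceps, and were not tested there. In diaphragm Gdf15 reached 5 CPM in the WT library alone, where it was high.

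The level of Cdkn1a was 89.4, 172, 47.35 and 72.9 CPM, so each mdx5cv library was below WT of its muscle and each diaphragm library above quadriceps of its genotype. The reduction in mdx5cv was 1.89-fold (1.63 to 2.18) in quadriceps and 2.36-fold (2.22 to 2.51) in diaphragm. Dissociation-associated genes summed to 6550, 21333, 3913 and 6084 CPM and so had the same order of libraries as Cdkn1a. Among the cells low in those genes the levels of Cdkn1a were 72.3, 106.6, 41.1 and 58.8 CPM, and both calls were kept, with the diaphragm reduction at 1.81-fold. With cells thinned to 1000 UMIs the quadriceps call was not made, at 0.918 (0.663 to 1.28) from 95 and 65 UMIs. An estimated 9.02%, 22.4%, 9.01% and 7.82% of the UMIs of these cells were free RNA.

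Cdkn1c was at 159, 127.5, 159.9 and 202 CPM in fibroblast-like cells, each above the 17.5 and 11.5 CPM of WT stem cell-like cells. The diaphragm ratio was 1.58 (1.51 to 1.66) and the quadriceps ratio 1.01 (0.914 to 1.11), and the ratio of the ratios 1.57 (1.41 to 1.75). The diaphragm call was not made with thinned cells, at 1.39 (1.25 to 1.55). In mdx5cv quadriceps 13 barcodes with a Myog UMI held 21.1% of the Cdkn1c UMIs of the class, and the level without them was 129.6 CPM. Cdkn2c was at 13.4, 9.80, 21.8 and 18.8 CPM, 1.63-fold (1.18 to 2.29) and 1.92-fold (1.64 to 2.25) higher in mdx5cv. The quadriceps call was not made in 4 alternatives, at 1.31 (0.930 to 1.88) without cycling cells, 1.19 (0.665 to 2.20) with thinned cells, 1.465 with a mitochondrial limit of 5% and 1.425 without the top 5% of barcodes by UMIs. Without cycling cells the diaphragm call remained, though not in cells low in dissociation-associated genes, at 1.35 (1.06 to 1.73). Gdf15 was at 3.20, 12.4, 1.68 and 3.82 CPM and 3.26-fold lower (2.515 to 4.275) in mdx5cv than in WT diaphragm.

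Among fibroblast-like cells of WT diaphragm, 38 cycling cells had 214.5 CPM of Cdkn2c against 7.69 CPM in cells with no cycling gene, a 27.9-fold difference (20.9 to 36.85). The difference was 2.60-fold (1.93 to 3.49) in mdx5cv quadriceps and 2.83-fold (2.01 to 3.92) in mdx5cv diaphragm. Cells of the Dpp4 and Pi16 type, a progenitor state found near vessels and fascia, and of the Hsd11b1 and Gfra1 type, a state of the muscle interior, differed in Cdkn1c in opposite ways in the 2 quadriceps libraries. The Dpp4 and Pi16 type was 2.42-fold lower (1.96 to 2.99) in WT and 1.65-fold higher (1.41 to 1.915) in mdx5cv. In mdx5cv diaphragm the same type had 2.28-fold (1.86 to 2.78) more Cdkn1a. Its share of the class was 34.8%, 29.5%, 9.55% and 6.87%, so it was smaller in both mdx5cv libraries. Within it Cdkn1a was at 73.6, 199, 50.3 and 113 CPM, and within the Hsd11b1 and Gfra1 type at 97.4, 137.5, 36.1 and 49.5 CPM. In each type, each mdx5cv library was below WT of its muscle.

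In macrophage-like cells 4 members were called in 1 muscle each. Gdf15 was higher in mdx5cv than in WT quadriceps, Mdm2 likewise, Cdkn1a higher in mdx5cv than in WT diaphragm and Cdkn1c lower. In quadriceps 7 members were tested and 2 called higher and 0 lower, against 15.2% and 11.3% of 9850 genes. In diaphragm 7 were tested and 1 called higher and 1 lower, against 15.9% and 9.18% of 9576 genes. Cdkn2a and Cdkn2b were under 5 CPM in both muscles.

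Gdf15 had 10, 119, 1701 and 1385 UMIs, or 14.1, 175, 73.3 and 149 CPM. WT quadriceps was low and the other 3 libraries high. The mdx5cv level was 5.21-fold (2.83 to 10.9) that of WT in quadriceps and 0.852-fold (0.706 to 1.04) in diaphragm, which was not called. The diaphragm ratio was 6.12-fold (3.20 to 11.7) below the quadriceps ratio. Within WT, diaphragm was 12.5-fold higher (6.55 to 26.7) than quadriceps and within mdx5cv 2.04-fold higher (1.90 to 2.19). A Gdf15 UMI was present in 2.07%, 19.7%, 14.9% and 21.8% of macrophage-like cells and in at most 0.935% of lymphoid cells, and in 0.518%, 8.45%, 4.99% and 8.68% of macrophage-like cells thinned to 1000 UMIs. In WT diaphragm 5 cells held 52.9% of the UMIs. The level of macrophage-like cells was the highest of the 4 classes in each library, though in WT quadriceps it rests on 10 UMIs against 8 in stem cell-like cells. In mdx5cv they exceeded fibroblast-like cells by 43.7-fold (27.2 to 75.2) in quadriceps and 39.1-fold (30.7 to 50.6) in diaphragm.

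Cdkn1a stood at 136, 144.5, 198 and 276 CPM in macrophage-like cells. The diaphragm ratio of 1.91 (1.56 to 2.36) was called and the quadriceps ratio of 1.45 (1.19 to 1.79) fell short of 1.5-fold, though in thinned cells it was 2.115 (1.37 to 3.44). The ratio of the ratios was 1.32 (0.992 to 1.75), so the muscles were not shown to differ. Dissociation-associated genes were lower in mdx5cv here too, at 13315, 21847, 5486 and 10232 CPM, the opposite direction to Cdkn1a. Mdm2 was at 39.4, 75.2, 60.6 and 68.5 CPM, with a quadriceps ratio of 1.54 (1.06 to 2.32) that was called. That call was not made in 5 alternatives, at 1.44 with ratios divided by the median ratio of genes, 1.46 with a minimum of 2000 UMIs, 1.31 (0.882 to 2.03) with a mitochondrial limit of 5%, 2.08 (0.938 to 5.72) in thinned cells and 2.22 (0.949 to 6.86) in cells low in dissociation-associated genes. Cdkn1c was at 18.3, 23.6, 16.8 and 7.445 CPM, 3.17-fold lower (1.72 to 5.52) in mdx5cv than in WT diaphragm. With thinned cells or with cells low in dissociation-associated genes that call was not made, since 4 and 3 WT UMIs were left. In mdx5cv quadriceps 46 barcodes with a Myog UMI held 56.8% of its UMIs in the class, and without them the level was 7.43 CPM, at a ratio to WT of 0.406 (0.231 to 0.779) that was past the call.

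Cells with markers of the Spp1 and Gpnmb state, a lipid-handling state of injured tissue, numbered 23, 4, 2287 and 883, and resident-type cells with Lyve1 and Cd163 markers 66, 69, 63 and 41. In mdx5cv quadriceps Gdf15 was at 78.6 CPM in the former and 8.80 CPM, from 3 UMIs, in the latter, which is 8.93-fold (3.05 to 43.4). In mdx5cv diaphragm the levels were 160 and 199.6 CPM and the difference was not called. Cycling macrophage-like cells had 5.245-fold (4.34 to 6.355) more Cdkn2c in mdx5cv quadriceps and 4.96-fold (3.20 to 7.505) more in mdx5cv diaphragm. Cdkn1a was 1.76-fold lower (1.42 to 2.21) in cycling cells of mdx5cv diaphragm. Gdf15 was 1.67-fold lower in cycling cells of mdx5cv quadriceps and 1.68-fold higher in those of mdx5cv diaphragm.

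In endothelial-like cells, Cdkn1a and Cdkn1c were lower and Trp53 higher in mdx5cv than in WT quadriceps, and no member was called in diaphragm, where the WT library had 75 such cells. In quadriceps 6 members were tested and 1 called higher and 2 lower, against 17.9% and 6.2% of 10534 genes, while Cdkn2a, Cdkn2b and Gdf15 were under 5 CPM. In diaphragm 9 were tested and 0 called in either direction, against 4.76% higher and 5.59% lower of 11348 genes. In that WT library 1 UMI equals 5.13 CPM, so a single UMI was enough for a gene to be tested. Cdkn2a was tested on 1 WT UMI against 0 in mdx5cv, and Cdkn2c on 1 against 13. Of the 11348 genes, 3901 had a count set to the floor. With counts this low, the lack of calls in diaphragm does not show an absence of change.

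Cdkn1a was at 259, 267, 154 and 190.5 CPM. In both WT libraries these were the highest of the 4 classes, called above macrophage-like cells by 1.90-fold (1.54 to 2.36) and 1.85-fold (1.29 to 2.61), and in WT diaphragm not called above stem cell-like cells, at 1.27-fold (0.874 to 1.84). In mdx5cv quadriceps stem cell-like cells led instead, at 1.96-fold (1.65 to 2.34) the endothelial-like level. It was 1.68-fold lower (1.44 to 1.98) in mdx5cv than in WT quadriceps and 1.40-fold lower (1.01 to 1.91) in diaphragm, where the fold fell short of the call and the direction turned with a mitochondrial limit of 5%. Dissociation-associated genes summed to 8627, 20849, 5206 and 9644 CPM. Among the cells low in them, the levels of Cdkn1a in the quadriceps libraries were 160.1 and 139.6 CPM, and the call was not made, at 0.872 (0.702 to 1.08). Cdkn1c was at 255.5, 154, 169.5 and 116 CPM and 1.51-fold lower (1.30 to 1.76) in mdx5cv quadriceps, just past the threshold. That call was not made in 4 of the alternatives, with ratios of 0.682 to 0.7185. In mdx5cv quadriceps 1 barcode with a Myog UMI held 35.2% of the Cdkn1c UMIs of the class. Without it the level was 111 CPM and the ratio to WT 0.435 (0.360 to 0.522). Trp53 was at 52.5, 92.3, 94.6 and 78.7 CPM, 1.80-fold (1.43 to 2.26) higher in mdx5cv than in WT quadriceps.

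Arterial-type cells, with markers such as Gja4 and Hey1, had more Cdkn1c than venous-type cells, with markers such as Vwf and Nr2f2, in the 3 libraries with enough cells. The difference was 3.015-fold (2.12 to 4.38) in WT quadriceps, 2.94-fold (1.29 to 7.12) in mdx5cv quadriceps and 2.997-fold (1.325 to 7.63) in mdx5cv diaphragm. Cdkn1a was 2.24-fold (1.64 to 3.09) higher in arterial-type cells of WT quadriceps and was not called in the mdx5cv libraries.

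**Figure D5:**
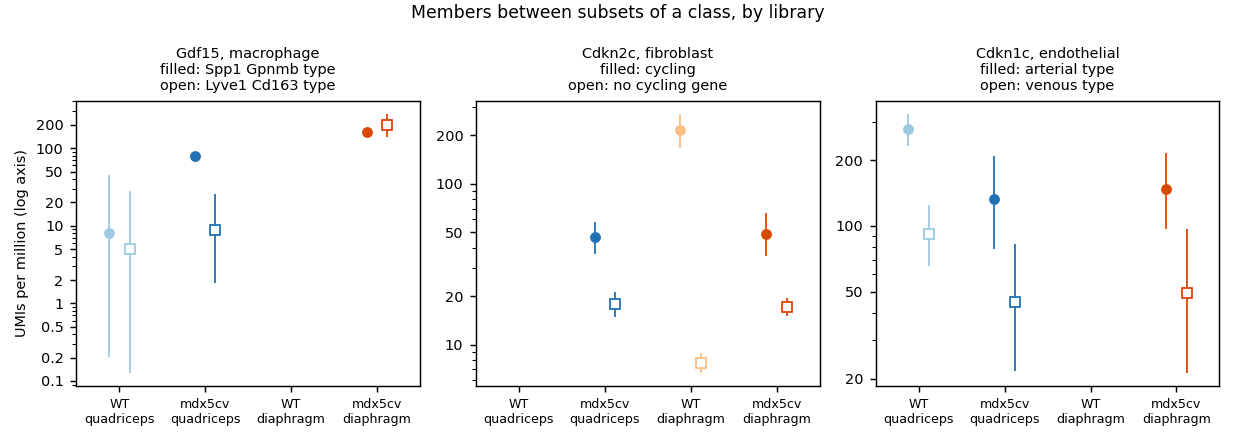
Levels (CPM, log axis) in subsets of a class, by library, with exact 95% intervals, for Gdf15 in macrophage-like, Cdkn2c in fibroblast-like and Cdkn1c in endothelial-like cells. Cycling fibroblast-like cells of WT diaphragm reach 214.5 CPM of Cdkn2c against 7.69 CPM, and libraries with too few cells of a subset are not drawn.

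Other p53 targets were called in both directions. Each list count below stands against the share of all genes called in that class and muscle. Higher and then lower, that share was 25.3% and 12.5% for stem cell-like cells of quadriceps and 17.5% and 10% for those of diaphragm. The shares for the other classes were given with the members' counts above. Of 27 other p53 targets, 25 were tested in stem cell-like cells of quadriceps, where 9 were called higher and 4 lower, and 25 in diaphragm, with 6 higher and 6 lower. Their median log2 ratios were 0.34 and -0.30, against 0.30 and 0.14 over all genes tested. Phlda3, an inhibitor of Akt signalling, was higher in both muscles, at 31.45 and 143 CPM in quadriceps and 11.5 and 125 CPM in diaphragm, and so was Rps27l, a ribosomal protein paralogue, by 2.13-fold (1.90 to 2.39) and 2.27-fold (1.86 to 2.80). Btg2, an antiproliferative gene that is also an immediate early gene, was lower by 3.93-fold (3.48 to 4.44) in quadriceps and, for diaphragm, 8.79-fold (7.73 to 9.997), and Gadd45a, a DNA damage and stress gene, 2.39-fold and 4.52-fold lower.

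Of the p53 targets tested in fibroblast-like cells, 4 of 24 were called higher in quadriceps, where 3 were lower, and 4 of 22 in diaphragm, where 5 were lower. The median log2 ratios were -0.10 and -0.14, against 0.07 over all genes tested in each muscle. Aen, an apoptosis nuclease, was higher by 1.67-fold (1.26 to 2.24) in quadriceps and, for diaphragm, 1.625-fold (1.44 to 1.83), while Ephx1, an epoxide hydrolase, was 2.95-fold and 1.68-fold lower. In macrophage-like cells 4 of 22 were higher in quadriceps, with 5 lower, and in diaphragm 6 of 22 were higher and 3 lower, with medians of 0.16 and 0.48 against 0.12 and 0.21 over all genes. Trp53inp1, a stress-induced partner of p53, was higher by 2.93-fold (1.34 to 8.02) in quadriceps and, for diaphragm, 3.09-fold (1.30 to 9.61), and Pmaip1, which encodes the pro-apoptotic factor Noxa, was lower by 1.77-fold (1.20 to 2.53) and 2.26-fold (1.66 to 3.02). Of the targets in endothelial-like cells, 3 of 26 were higher in quadriceps, where 3 were lower, and 1 of 25 in diaphragm, where 2 were lower. There the medians were 0.00 and -0.21, against 0.18 and -0.23. Of 10 regulators and relatives of p53, such as Atm, Chek1 and Mdm4, 0 were called in stem cell-like and fibroblast-like cells of either muscle, with 6 to 8 tested. In macrophage-like cells 2 of 7 in quadriceps and 1 of 7 in diaphragm were lower, and in endothelial-like cells 1 of 7 was lower in quadriceps and 0 of 7 was called in diaphragm.

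CDKs, cyclins and cycling genes were mostly higher in mdx5cv stem cell-like cells. Of 17 CDKs, cyclins and pocket proteins, 10 were called higher in quadriceps, where 0 were lower, and 11 in diaphragm, where 1 was lower. Their median log2 ratios were 1.345 and 1.24, against 0.30 and 0.14 over all genes tested. Cdk6, the partner that INK4 proteins bind, had 2 WT against 178 mdx5cv UMIs in quadriceps, and 3 against 182 in diaphragm. Ccnd1, the cyclin D1 gene, was higher by 2.54-fold (1.96 to 3.33) in quadriceps and, for diaphragm, 3.001-fold (2.01 to 4.66). All 15 cycling genes were higher in both muscles, with medians of 3.77 and 2.79, counts under 3 UMIs being set to the floor of 3 in all list medians. Top2a, the topoisomerase of dividing cells, was 13.4-fold (6.92 to 29.6) higher in quadriceps. Fibroblast-like cells of quadriceps had 6 of 14 CDKs and cyclins higher, 1 lower and 15 of 15 cycling genes higher. In diaphragm 2 of 11 were higher, 2 lower and 6 of 9 cycling genes higher. Macrophage-like cells of quadriceps had 3 of 16 CDKs and cyclins higher and 1 lower, with 4 of 15 cycling genes higher. Their diaphragm counts were 2 of 14 higher, 1 lower and 3 of 11 cycling genes higher. Cdk6 was higher there in both muscles, by 2.32-fold (1.565 to 3.59) and 2.05-fold (1.37 to 3.22), and so was Cdk4. Endothelial-like cells had 2 of 10 CDKs and cyclins and 5 of 5 cycling genes higher in quadriceps, and 1 of 10 and 0 of 5 in diaphragm. In quadriceps Top2a, Tpx2, Rrm2 and Pclaf reached 5 CPM in the mdx5cv library alone, where they were high. Without that filter 7 of 15 cycling genes were higher, and 7 had fewer than 3 UMIs in a library. In diaphragm Cenpf, Aurkb and Rrm2 were tested on 1 WT UMI against 0. Ccnd1 was higher in endothelial-like cells of both muscles, by 2.31-fold (1.93 to 2.76) and 1.97-fold (1.28 to 3.16).

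Senescence-associated genes were called in both directions. In stem cell-like cells 5 of 9 tested were higher in quadriceps, with 2 lower, and in diaphragm 3 of 10 were higher and 5 lower. The medians were 1.35 and -0.57, against 0.30 and 0.14 over all genes, of which 25.3% and 17.5% were higher and 12.5% and 10% lower. Lmnb1, the lamin B1 gene that is lost from senescent cells, was higher by 6.21-fold (3.36 to 12.7) in quadriceps and, for diaphragm, 10.4-fold (3.48 to 51.0). Cxcl1, a secreted chemokine gene, was lower by 6.56-fold (4.46 to 9.87) and 8.50-fold (5.485 to 13.4). Igfbp3 and Hmgb2 were also called higher in both muscles, with lower interval bounds of at least 4.146-fold and 1.373-fold. Since Lmnb1 is on the list, a count of higher genes has no single reading. Fibroblast-like cells had 8 of 11 in quadriceps higher and 0 lower, and in diaphragm 4 of 11 higher and 3 lower, with medians of 1.22 and 0.04 against 0.07 over all genes in each muscle. In them the protease gene Mmp3 was higher by 11.6-fold (9.43 to 14.4) and 4.255-fold (3.97 to 4.56). Ccl2, a chemokine gene, was higher by 7.61-fold (6.77 to 8.58) and 1.94-fold (1.88 to 1.99). In macrophage-like cells 4 of 10 were higher and 1 lower for quadriceps, against 1 and 5 of 10 for diaphragm. For endothelial-like cells the counts were 5 of 10 higher with 1 lower, and 0 of 11 higher with 2 lower. The medians were 0.76 and -0.76 in the former class and 0.72 and -0.37 in the latter, against 0.12 and 0.21, and 0.18 and -0.23, over all genes.

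Integrated stress response genes include factors that also induce Gdf15. Of the 10 listed, 1 was not matched because its symbol belongs to more than 1 gene ID. In stem cell-like cells 1 of 6 tested was higher in quadriceps, with 3 lower, and in diaphragm 1 of 7 was higher and 3 lower. The medians were -0.70 and -2.18, against 0.30 and 0.14 over all genes, of which 25.3% and 17.5% were higher and 12.5% and 10% lower. Atf3, a stress transcription factor and immediate early gene, was lower by 5.65-fold (4.69 to 6.825) in quadriceps and, for diaphragm, 16.4-fold (14.4 to 18.7). In macrophage-like cells, where Gdf15 was highest, 0 of 5 were called in quadriceps, and in diaphragm 1 of 5 was higher and 3 lower, with medians of 0.20 and -1.06 against 0.12 and 0.21. Fibroblast-like cells of quadriceps had 1 of 5 higher and 1 lower, and those of diaphragm 0 of 5 higher and 3 lower, with medians of -0.04 and -0.65. Endothelial-like cells had 1 of 8 higher and 1 lower, and 0 of 6 higher with 3 lower, with medians of 0.21 and -1.465. Dissociation-associated genes were lower in mdx5cv in these 3 classes as well. Of the 10, 8 were lower in quadriceps and 10 in diaphragm in fibroblast-like cells, 8 and 7 in macrophage-like cells, and 5 and 10 in endothelial-like cells, where 1 was higher in quadriceps.

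Cdkn1c is itself an imprinted growth gene, and others of that kind differed in the same cells. In stem cell-like cells 4 of 9 were higher in quadriceps, with 2 lower, and in diaphragm 6 of 9 were higher and 2 lower, with medians of 0.56 and 0.90. Igf2, a fetal growth factor, was higher by 5.56-fold (3.93 to 8.10) in quadriceps and, for diaphragm, 7.05-fold (4.58 to 11.5). H19, its neighbouring non-coding RNA, was higher by 5.20-fold and 6.03-fold, and Mest, a gene of another imprinted domain, by 3.19-fold and 5.09-fold. Meg3, a non-coding RNA of a further imprinted cluster, went the other way and was lower by 18.9-fold (16.5 to 21.7) and 18.2-fold (15.8 to 21.0). Fibroblast-like cells had 7 of 9 in quadriceps higher and 1 lower, and in diaphragm 5 of 9 higher and 0 lower. Macrophage-like cells had 1 of 3 higher in each muscle. Endothelial-like cells of quadriceps had 4 of 7 higher and 1 lower, and those of diaphragm 0 of 7 higher and 3 lower.

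The genes whose level was most like a member over the 16 class and library sums, by Pearson's r of log2(CPM + 10) among 9683 genes, were named by rank. They were Ttc1 (0.88), Rnf115 (0.75) and Cntrl (0.74) for Cdkn1a, Mtap (0.90), Uba3 (0.89) and Cpped1 (0.89) for Cdkn1c, and Rilpl2 (0.91), F10 (0.90) and Plek (0.89) for Gdf15. The 16 sums share libraries and classes, so these values are descriptions. Mtap lies on chromosome 4, 93389 bases from Cdkn2a.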

How the data were processed

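Single-cell 3′ RNA libraries of 4 groups, 1 library each, were analysed from the UMI counts per gene and barcode that the authors deposited, made with Cell Ranger 5.0.0 on mm10, per the submitters' processing notes. These matrices are not filtered for cells. The columns of other samples in them numbered 0. Library totals, which set the precision of each count, are given at the opening of the results.

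Barcodes with at least 1000 UMIs, 500 genes and at most 15% mitochondrial UMIs were kept, which removed 635, 315, 676 and 348 barcodes by the last limit. A barcode took the class whose markers it passed. Where it passed several, it took the class with at least 2 times the share of markers detected of each other class, and was otherwise left out as mixed. No doublet caller was run. Raw UMIs were summed per class and library, with exact Poisson intervals for levels, exact binomial intervals for shares of cells and exact conditional intervals for ratios, all at 95%. Ratios of ratios used a log-scale counting error. Comparisons set mdx5cv against WT within a muscle, the muscles within a genotype, and classes and subsets within a library. A level of 0 was set to a floor of 3 UMIs, which is a convention and not an exact bound. Cells were also thinned to 1000 UMIs.

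All 9 members were named. Genes of other lists could be named where called in 1 direction in both muscles of a class, ranked by the bound nearest 1, at most 4 a list and class. Only some of the genes that qualified are named in the text. The gene lists, all counted in the results, held p53 targets, p53 regulators, CDKs and cyclins, cycling genes, senescence-associated, integrated stress response, dissociation-associated and imprinted growth genes. The members, markers and lists were chosen with earlier results of these data known. Gene positions come from GENCODE M21 on GRCm38 and upstream sequences from RefSeq, where 8 of the 9 members had a window. The ratio step was tested on simulated data that held counting error only. Differences between cells, animals and preparations were not simulated, so the calls are not checked against them. Python 3.11.15, numpy 2.4.6, scipy 1.17.1, pandas 2.3.3 and matplotlib 3.10.9 were used.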

Additional observations from a re-analysis of the deposited data

Results flagged for a closer look

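Cdkn1a in muscle stem cell-like cells had a log2 ratio of mdx5cv to WT of 3.16 in quadriceps and -1.33 in diaphragm, and the interval of the ratio of the ratios excluded 1. That interval covers counting error alone, and with 1 library a group the difference was not tested over replicates.

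Barcodes that passed several classes and were left out as mixed numbered 263 and 139 in the WT libraries and 997 and 705 in the mdx5cv libraries, quadriceps first, with a median of 3999, 6608, 8241 and 8019 UMIs. In these unused barcodes the ratio of mdx5cv to WT was above 1 for some members and below 1 for others. Cdkn1c was at 148 CPM in mdx5cv and 69.7 CPM in WT diaphragm. Cdkn2a was at 11.0 CPM in mdx5cv and 2.65 CPM in WT quadriceps, from 115 and 3 UMIs. Mdm2 was at 65.4 CPM in mdx5cv and 25.3 CPM in WT diaphragm. Gdf15 was at 35.0 CPM in mdx5cv and 12.4 CPM in WT quadriceps, and at 69.2 CPM in mdx5cv and 25.3 CPM in WT diaphragm. Cdkn1c in quadriceps went the other way, at 95.8 CPM in mdx5cv and 160.6 CPM in WT, a ratio of 0.596 (0.5085 to 0.702). In diaphragm Cdkn2c, with a ratio of 0.412 (0.271 to 0.641), and Cdkn2b, with a ratio of 0.248 (0.0972 to 0.683), were lower in mdx5cv as well.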

How the results depend on the processing

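No paired analysis was possible because each group is 1 library. Of 104 alternative values of the 8 Cdkn1a ratios, 84 stayed within counting error, 20 moved beyond it and 0 turned a called direction. Of 706 values for the other members, 632 stayed, 73 moved and 1 turned. The causes were not tested.

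For Cdkn1a on the log2 scale, the stem cell-like ratio in quadriceps was 2.61 with a minimum of 2000 UMIs and 2.48 without barcodes with a Myog UMI, and in diaphragm -1.86 without the latter. In fibroblast-like cells of quadriceps (-0.92 as reported) it was -1.33 without barcodes passing several classes, -1.39 with a mitochondrial limit of 5%, -0.12 with cells thinned to 1000 UMIs, -0.63 as a mean over cells, -1.135 with free RNA subtracted and -1.22 without Myog barcodes. In diaphragm (-1.24) it was -0.99 when thinned, -1.11 without the top 5% of barcodes by UMIs, -0.98 as a mean over cells, -1.39 with free RNA subtracted and -0.86 in cells low in dissociation-associated genes. Macrophage-like values in quadriceps (0.54) were 1.08 when thinned and 0.93 in cells low in those genes, and in diaphragm (0.93) 1.27 without the 5 cells richest in the gene. Endothelial-like values were -0.20 in quadriceps in cells low in those genes, and in diaphragm (-0.49) 0.58 with the mitochondrial limit of 5% and 1.51 in cells low in those genes. The last of these rests on 1 Cdkn1a UMI among 14 WT cells. Mdm2 in quadriceps stem cell-like cells turned to -1.51 with the limit of 5%.

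Over all members, with no filter on CPM, 14 of 24 calls were made again with thinned cells, 16 of 22 with the limit of 5%, 17 of 23 in cells low in dissociation-associated genes, 20 of 24 without cycling cells and 20 of 24 without the top 5% of barcodes. It was 22 of 25 with the minimum of 2000 UMIs, 23 of 25 without barcodes passing several classes, 24 of 25 with ratios divided by the median ratio, 25 of 25 with 1 more marker or without Myog barcodes, and 20 of 20 without the 5 richest cells. Calls with 0 UMIs in a library, as for Cdkn2a and Cdkn2b in stem cell-like cells of diaphragm, are not in these counts. Where an alternative left 0 UMIs in a library, the call was dropped from its count and not evaluated. The median ratio over genes with at least 50 CPM was 0.14 and 0.27 on the log2 scale in stem cell-like cells of quadriceps and diaphragm, 0.13 in macrophage-like cells of diaphragm and under 0.1 elsewhere. Without the filter of 5 CPM, 2319 genes were called higher and 1842 lower in fibroblast-like cells of diaphragm, against 1242 and 1073, with 7 in place of 4 p53 targets and 6 in place of 2 CDKs and cyclins higher. Leaving out barcodes with a Myog UMI and the 5 richest cells were chosen after seeing the data. With thinned cells the calls of Cdkn2a and Cdkn2c in stem cell-like cells and of Gdf15 in macrophage-like cells, all in quadriceps, were made again, on 1, 53 and 1 WT UMIs.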
